A study of Mus musculus with 15 samples.

Results

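The MHC class II antigen presentation genes are described here in mouse liver under 3 diets. The 7 members, taken by symbol from 23420 genes in the count tables, were H2-Aa, H2-Ab1, H2-Eb1, Cd74, H2-DMa, H2-DMb1 and Ciita. All 7 were found, and all 7 passed the filter on low counts that left 12193 genes for testing. The samples were polyadenylated RNA from pulverised left lobes of the liver of male C57Bl/6J mice, with 5 libraries per diet. The base diet (BD) held 4% fat, the high-fat diet (HFD) held 31% fat, and the MCD diet held 31% fat and lacked methionine, choline and folate. Every library was from a mouse given the vehicle alone (5% emulsifier in saline), and tissue was taken 24 h after that treatment, so the groups differed by label in diet only. Age, time on diet and whether each library was a separate animal were not given in the sources used here. The p-values therefore rest on the spread among these libraries, which may be technical. The BD libraries carry sample numbers in a series apart from those of the other diets. Any batch that followed those numbers and the base diet cannot be told apart.

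MHC class II molecules are pairs of an alpha and a beta chain that show peptides from endocytosed protein to CD4+ T cells. The pair is assembled on the invariant chain (CD74), which blocks the groove until endosomal proteases cut it down, and the DM pair then exchanges the remaining fragment for peptide. In liver the genes are known from dendritic cells, B cells, macrophages including Kupffer cells and, at lower levels, endothelium. Transcription depends on CIITA, a coactivator without DNA-binding activity of its own that is recruited to a promoter module bound by the RFX, NF-Y and CREB factors. C57BL/6 mice carry a deletion in the promoter of the E alpha gene, so that the E beta chain encoded by H2-Eb1 has no partner on the cell surface.

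Per the GENCODE vM21 annotation of GRCm38, H2-Aa (I-A alpha chain) lies on chromosome 17 from 34282744 to 34287823 on the minus strand. H2-Ab1 (I-A beta chain) runs from 34257689 to 34269419 and H2-Eb1 from 34305867 to 34316674, both on the plus strand of chromosome 17. The peptide-exchange genes H2-DMa (34119541 to 34139101) and H2-DMb1 (34153072 to 34160230) lie on the same chromosome and strand. Ciita lies on chromosome 16 from 10480059 to 10528418 on the plus strand. Exons of H2-DMa overlap those of the antisense gene Brd2, and exons of Ciita those of antisense Dexi. With the strand setting of the counting not given in the sources used here, reads of these pairs may not be separated. Counts of H2-DMb1 are also uncertain because H2-DMb2 is a close copy.

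Promoters are shown because the members changed together and because the CIITA module is a sequence feature. Entries for 4 of the 7 members were read from the RefSeq promoter table (GRCm38.p6): H2-Aa, H2-Eb1, H2-DMa and H2-DMb1. It held none for H2-Ab1 or Ciita, and Cd74 was not among the members looked up. For the alpha and beta chain genes H2-Aa and H2-Eb1 the 140 bases before the start are printed 5′ to 3′ on the strand of the gene, at chr17:34287824-34287963 (minus strand) and chr17:34305727-34305866 (plus strand). Capitals mark matches to the Y box (TGATTGG, the CCAAT-type site of NF-Y), to an X box core (CNNATGATG) or to the CRE (TGACGTCA).
H2-Aa: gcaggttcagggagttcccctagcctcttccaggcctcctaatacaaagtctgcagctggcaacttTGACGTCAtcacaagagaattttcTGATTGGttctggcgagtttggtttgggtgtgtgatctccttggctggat
H2-Eb1: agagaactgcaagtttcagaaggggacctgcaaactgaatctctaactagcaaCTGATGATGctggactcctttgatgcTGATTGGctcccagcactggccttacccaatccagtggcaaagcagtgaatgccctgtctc

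The H2-Eb1 promoter held the X box core at bases 87 to 79 before the start and the Y box at bases 61 to 55, with 17 bases between them. The H2-Aa promoter held a CRE at bases 74 to 67 and the Y box at bases 50 to 44, with 16 bases between them. In H2-DMb1 the X box core (CTGATGATG) stood at bases 90 to 82 and the Y box at bases 63 to 57, 18 bases apart. No match was found for these letters in the H2-DMa entries. Among 32851 promoter entries, searched on both strands over 250 bases before the start, 2.31% held the X box core, 7.23% the Y box and 1.55% the CRE. The X box core and Y box stood together in 52 entries (0.158%), among them those of H2-Eb1, H2-DMb1, H2-DMb2 and H2-Ob. The CRE and Y box stood together in 42 entries (0.128%). No match overlapped another motif's match in these members. The letters were chosen after these promoters had been read, and a match is a description of the sequence, not a bound site.

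Class II transcripts for the antigen-presenting chains, the invariant chain Cd74 and the DM pair were higher in MCD liver than in base-diet liver. The fold ran from 1.77 for H2-Ab1 to 2.16 for H2-Aa. Of the 7 members, 6 were called higher (edgeR quasi-likelihood test, Benjamini-Hochberg adjusted p under 0.05 over all genes), all but Ciita, and none lower. Among all genes tested in that comparison 21.4% were called, 12.8% higher and 8.64% lower. The same 6 members had no MCD library at or below any BD library in CPM (the count scaled to a common total of gene counts), a separation seen in that direction in 13.5% of all genes tested. The median log2 fold change over the 7 members was 0.95, beside -0.03 over all genes. In bulk liver RNA, more cells of a type and more RNA per cell cannot be told apart.

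**Figure D1:**
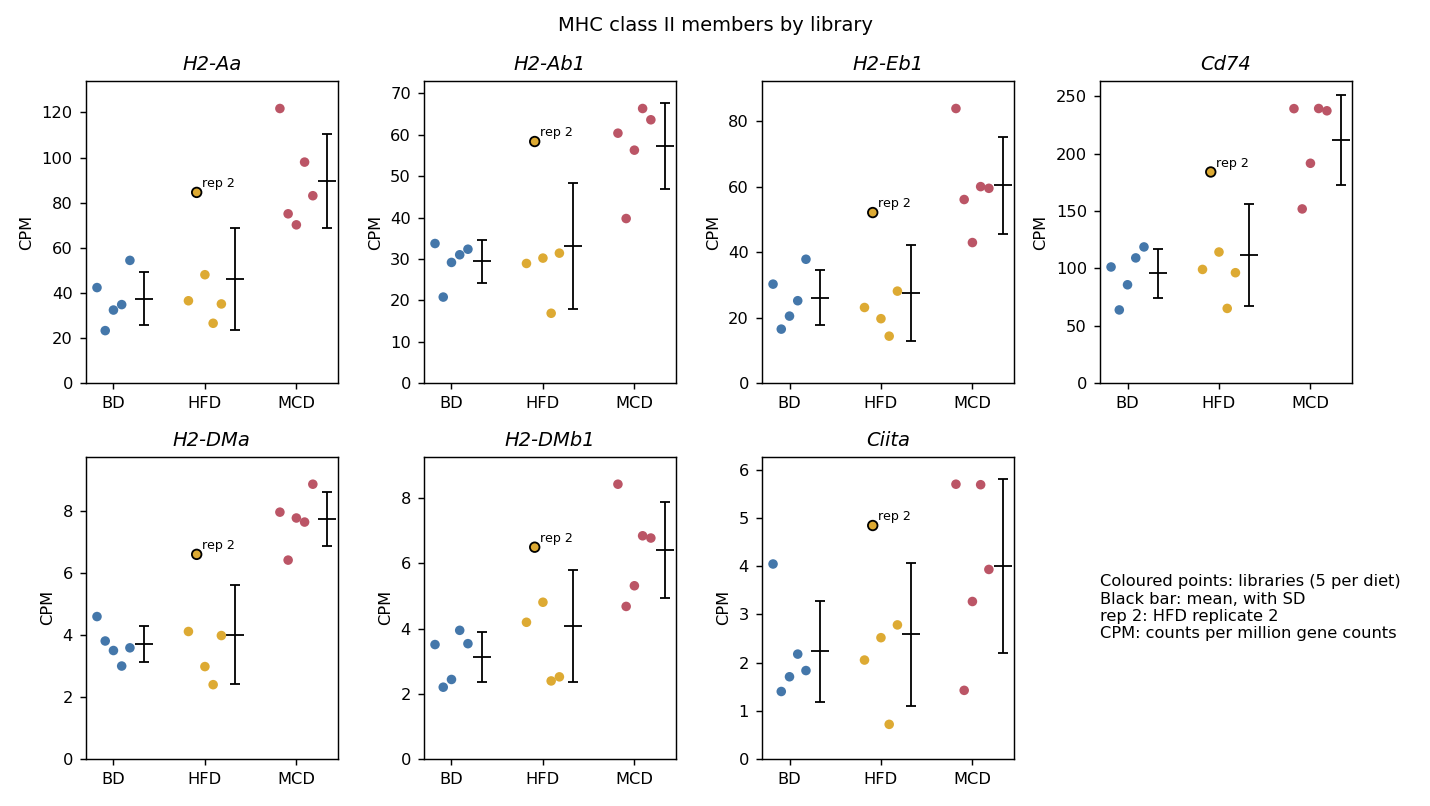
CPM of each class II member by library (points) in the 3 diets, with bars for the mean and SD of 5 libraries. In every panel but that of Ciita the MCD libraries all lie above the BD libraries, and 1 HFD library lies above the other 4.

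H2-Aa stood at 42.4, 23.3, 32.4, 34.8 and 54.4 CPM in BD replicates 1 to 5 and at 36.5, 84.6, 48.1, 26.6 and 35.1 CPM in HFD. In MCD it stood at 122, 75.1, 70.2, 98.0 and 83.1 CPM. The MCD libraries were all above the BD libraries, and HFD replicate 2 was above 3 of the 5 MCD libraries. H2-Aa rose in MCD against BD by 1.11 ± 0.28 on the log2 scale (SE, adjusted p = 0.0120, edgeR). Its partner in the I-A molecule, H2-Ab1, had 33.7, 20.8, 29.2, 31.0 and 32.4 CPM in BD, 28.9, 58.4, 30.2, 16.9 and 31.4 CPM in HFD and 60.4, 39.8, 56.3, 66.4 and 63.6 CPM in MCD. The lowest MCD library was 39.8 against a BD maximum of 33.7, and HFD replicate 2 again lay among the MCD libraries. H2-Ab1 rose by 0.82 ± 0.24 (SE, adjusted p = 0.0219, edgeR).

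H2-Eb1, the E beta chain, had 30.2, 16.5, 20.5, 25.2 and 37.8 CPM in BD, 23.1, 52.1, 19.7, 14.4 and 28.1 CPM in HFD and 83.8, 56.1, 42.9, 59.99 and 59.5 CPM in MCD. MCD and BD did not overlap, and the rise was 1.07 ± 0.30 on the log2 scale (SE, adjusted p = 0.0206, edgeR). H2-Ea-ps, the disabled E alpha locus of this strain, had no count in any of the 15 libraries, where 3 counts would be 0.130 to 0.810 CPM.

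Cd74, the invariant chain, was the member with the highest counts. It stood at 101, 63.8, 85.7, 109 and 119 CPM in BD, at 99.1, 184, 114, 65.1 and 96.2 CPM in HFD, and at 239, 152, 192, 239 and 237 CPM in MCD. Again no MCD library reached down to the BD range. The rise in MCD was 0.999 ± 0.22 on the log2 scale (SE, adjusted p = 0.00458, edgeR), a fold of 1.998.

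The peptide-exchange pair was counted at lower levels. H2-DMa had 4.59, 3.80, 3.49, 2.99 and 3.58 CPM in BD, 4.11, 6.59, 2.98, 2.39 and 3.98 CPM in HFD and 7.95, 6.41, 7.77, 7.64 and 8.86 CPM in MCD, from 13 to 184 counts per library. It had the smallest spread of the members in MCD (coefficient of variation 11.3%) and rose by 0.95 ± 0.20 on the log2 scale (SE, adjusted p = 0.00262, edgeR). H2-DMb1 had 3.51, 2.20, 2.44, 3.95 and 3.54 CPM in BD, 4.19, 6.50, 4.81, 2.39 and 2.52 CPM in HFD and 8.43, 4.68, 5.31, 6.85 and 6.78 CPM in MCD. It rose by 0.91 ± 0.25 (SE, adjusted p = 0.0134, edgeR), and its MCD and BD libraries did not overlap.

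Ciita, the coactivator, was the lowest member, with 11 to 132 counts per library. Its levels were 4.05, 1.40, 1.71, 2.18 and 1.84 CPM in BD, 2.05, 4.85, 2.52, 0.718 and 2.78 CPM in HFD and 5.71, 1.42, 3.27, 5.70 and 3.94 CPM in MCD. The diets overlapped, with BD replicate 1 above 3 of the MCD libraries and MCD replicate 2 at the foot of the BD range. The difference between MCD and BD was 0.86 ± 0.42 on the log2 scale (SE, adjusted p = 0.163, edgeR), with a 95% interval from -0.03 to 1.75 that holds both 0 and the values of the other 6 members.

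The rate of non-unique alignments was mostly lower in MCD than in BD, though the ranges of all diets overlapped. It was 1.49 to 2.80 per gene count in BD, 1.15 to 2.53 in HFD and 1.19 to 1.66 in MCD. With its log2 value as a covariate, 2 members were called in MCD against BD, Cd74 (0.73) and H2-DMa (0.60). The others then had log2 fold changes of 0.90 for H2-Aa, 0.44 for H2-Ab1, 0.82 for H2-Eb1, 0.59 for H2-DMb1 and 0.11 for Ciita, with adjusted p from 0.0860 to 0.879 (edgeR). Its part in the diet difference was not tested beyond this fit. Leaving out BD replicate 2 gave 4 members called, without H2-Ab1 and H2-Eb1.

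On the high-fat diet none of the 7 members was called in either direction against the base diet, where 6.92% of all genes tested were and 3.65% were called higher. No member's HFD libraries were separate from the BD libraries, as those of 7.58% of all genes were, 5.11% with HFD higher. None had an unadjusted p under 0.05 in edgeR, and DESeq2 and limma-voom also called 0. The log2 fold changes ran from 0.00 for H2-Eb1 to 0.30 for H2-DMb1, with adjusted p from 0.591 to 0.996. The 95% interval was -0.39 to 0.83 for H2-Aa, -0.41 to 0.62 for H2-Ab1 and -0.66 to 0.66 for H2-Eb1. For Cd74 it was -0.32 to 0.63, for H2-DMa -0.39 to 0.53, for H2-DMb1 -0.26 to 0.86 and for Ciita -0.75 to 1.17. A rise as large as the one estimated in MCD lay outside these intervals for 6 members and inside for Ciita. The HFD and MCD comparisons share the BD libraries.

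HFD replicate 2 was the highest HFD library for each of the 7 members. The summed level of the members was 397 CPM there and 128.5 to 223 CPM in the other 4 HFD libraries, beside 132 to 252 CPM in BD and 335 to 527 CPM in MCD. On the first principal component of all genes tested, which held 37.1% of the variance, its score of 28.4 was inside the MCD range of 15.6 to 39.4. Its rate of non-unique alignments, 1.15 per gene count, was the lowest of the 15 libraries. The other HFD libraries had 1.73 to 2.53 and the MCD libraries 1.19 to 1.66. The part of that rate in its levels was not tested. Without HFD replicate 2 the log2 fold changes against BD were -0.10 for H2-Aa, -0.19 for H2-Ab1, -0.35 for H2-Eb1, -0.08 for Cd74, -0.17 for H2-DMa and -0.20 for Ciita, and 0.06 for H2-DMb1. None of these was called.

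**Figure D2:**
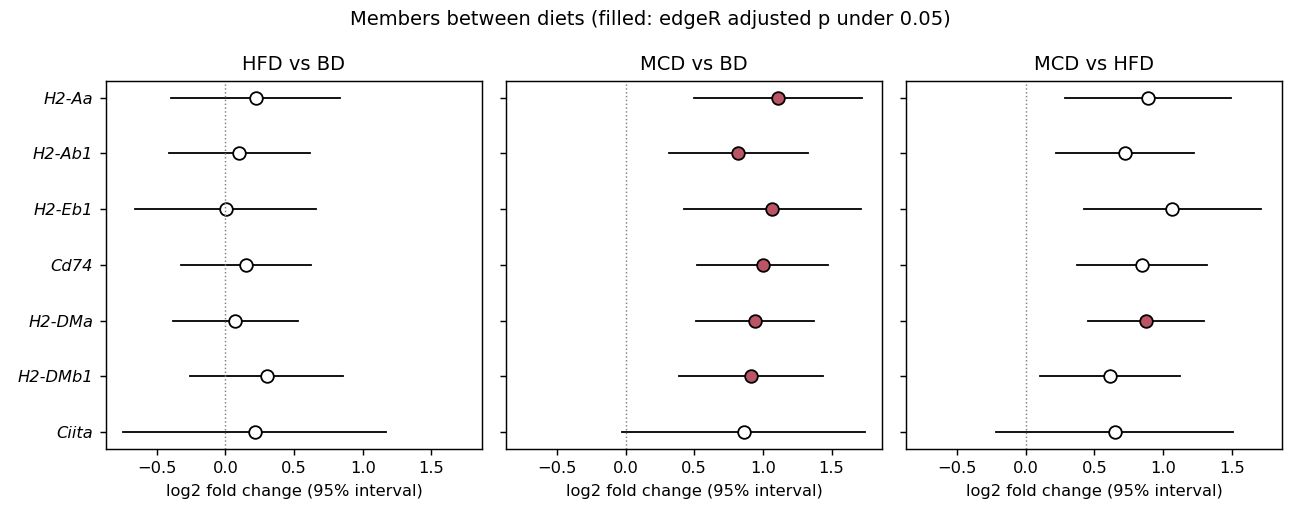
Log2 fold change of each class II member between diets, with 95% intervals from the edgeR fit to all 15 libraries. The MCD against BD intervals lie above 0 for 6 members and cross it for Ciita, and the HFD against BD intervals cross 0 for all 7.

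Between the fat-rich diets, 1 of the 7 members was called higher in MCD than in HFD, H2-DMa (0.87 ± 0.20 on the log2 scale, SE, adjusted p = 0.0262, edgeR), and none lower. Of all genes tested, 3.15% were called, 2.22% higher and 0.927% lower. The other members had differences of 1.07 for H2-Eb1 (adjusted p = 0.0673), 0.89 for H2-Aa (0.0997), 0.85 for Cd74 (0.0505), 0.72 for H2-Ab1 (0.107), 0.65 for Ciita (0.394) and 0.61 for H2-DMb1 (0.164). No member separated the MCD from the HFD libraries, a separation in either direction that 4.54% of all genes tested had, 3.85% with MCD higher.

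That count turned on HFD replicate 2. Without it 6 members were called higher in MCD than in HFD, all but Ciita, with log2 differences from 0.88 for H2-DMb1 to 1.44 for H2-Eb1, and 1248 genes were called in all, beside 384 with every library. H2-DMa was itself not called without any 1 of HFD replicates 1, 3, 4 and 5 or MCD replicates 1, 4 and 5, nor in a fit of only these 2 diets or with the covariate.

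Levels were compared between members per kilobase of the principal transcript (RPKM). In BD the order was Cd74 (67.9 ± 15.3, SD, n = 5), H2-Aa (33.2 ± 10.3), H2-Ab1 (24.3 ± 4.21), H2-Eb1 (15.6 ± 5.00), then H2-DMa (2.23 ± 0.351) and H2-DMb1 (2.23 ± 0.542), and Ciita (0.372 ± 0.175). Across libraries the ranges of neighbours in that order overlapped, except between H2-Eb1 and H2-DMa and between H2-DMb1 and Ciita. Within each BD library the first 4 kept the order. In MCD the first 4 were 150 ± 27.8, 79.4 ± 18.5, 47.3 ± 8.65 and 36.2 ± 8.86 RPKM, the DM genes were 4.66 ± 0.529 and 4.57 ± 1.05 RPKM, and Ciita was 0.667 ± 0.300 RPKM. In MCD replicates 1 and 2 H2-Eb1 lay above H2-Ab1, at 50.2 against 49.8 and 33.6 against 32.8 RPKM. The order of the first 4 was the same in HFD.

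Proportions among members were taken within each library. In counts, Cd74 per H2-Aa (SD, n = 5) was 2.62 ± 0.362 in BD, 2.49 ± 0.237 under HFD and 2.40 ± 0.403 under MCD. H2-Eb1 per H2-Aa was 0.694 ± 0.0364 in BD and 0.675 ± 0.0611 in MCD, and H2-Ab1 per H2-Aa was 0.815 ± 0.130 and 0.654 ± 0.137. These ranges overlapped between all diets. Over the 15 libraries the 21 pairs of members had Pearson r from 0.69 to 0.97 (median 0.87) on log2 CPM. Taken as deviations from the diet means, r ran from 0.47, for H2-DMa with H2-DMb1, to 0.95 (median 0.78). These correlations are descriptions of points that share library, depth and tissue composition.

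Of 11598 other named genes, those whose log2 CPM followed the mean of the members most closely over the 15 libraries were Kbtbd11 (r = 0.93), the leukocyte actin-binding gene Lsp1 (0.92), Plekha2 (0.92), the ubiquitin-like modifier Ubd (0.92) and the leukocyte surface gene Cd48 (0.91). By deviations from the diet means they were Ubd (0.88), the Toll-like receptor gene Tlr1 (0.88), the proton pump subunit gene Atp6v0d2 (0.87), Kbtbd11 (0.86) and the transcription factor gene Klf6 (0.85). Ubd and Kbtbd11 were in both sets.

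The other genes of the class II pathway formed a list of 28, of which 24 were tested. In MCD against BD, 10 of the 24 were higher and 2 lower, with a median log2 fold change of 0.32. The proteases rose in part. Ctss, whose product trims the invariant chain, rose by 1.21 (adjusted p = 1.41e-05, edgeR), the asparaginyl endopeptidase gene Lgmn by 0.75, the thiol reductase gene Ifi30 by 0.66, and the cathepsin genes Ctsd by 0.46, Ctsz by 0.39 and Ctsb by 0.38. Ctse, another cathepsin gene in the count of 10, had 13 counts over the 5 BD libraries together and 95 over the MCD libraries, so that it passed the low-count filter through the diets where it was high. It was not called in the fit of only these 2 diets, nor without any 1 of BD replicates 1, 3 and 5 or MCD replicates 1, 3 and 4. Ctsl and Ctsh had 0.04 and -0.00 and were not called. Cd83, which stabilises surface class II, rose by 1.22, the tetraspanin gene Cd9 by 0.41 and March1, the ubiquitin ligase gene for class II turnover, by 0.94. Sppl2a, the protease gene for the last membrane fragment of CD74, fell by 0.30. With the covariate for non-unique alignments 5 of the list were higher and 1 lower.

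Among the promoter-binding factors Rfxank was called in both comparisons with BD. Rfxank, an RFX subunit gene, fell by 0.83 in MCD (adjusted p = 0.000775, edgeR) and by 0.66 in HFD (adjusted p = 0.0127), while its complex partners Rfx5 and Rfxap had -0.12 and 0.12 in MCD and were not called. Nfya, Nfyb, Nfyc and Creb1 had log2 fold changes from -0.21 to 0.06 in MCD, none called. In HFD Nfyb had -0.31 (95% interval -0.51 to -0.11, adjusted p = 0.0534, edgeR), and it was called lower there with DESeq2, with only the 2 diets, with the covariate and without BD replicate 5 or MCD replicate 2. The DM antagonist subunit gene H2-Ob had 0.73 (adjusted p = 0.173), and H2-Oa, H2-Eb2 and H2-DMb2 were too low to be tested.

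In HFD against BD, 4 of the 24 partners were higher, namely Ctss (0.59), Lgmn (0.38), March1 (0.87) and March8 (0.35), and Rfxank was the 1 lower. The higher count was 2 without any 1 of BD replicates 2, 3 and 4 or HFD replicates 2 and 3, and the lower count was 2 without BD replicate 5 or MCD replicate 2. In MCD against HFD, Ctss (0.62) and Lgmn (0.38) were higher, and without HFD replicate 2 the count was 6. It was 0 or 1 without any 1 of BD replicates 2 and 3, HFD replicates 1, 3, 4 and 5 or MCD replicates 1, 2, 4 and 5.

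**Figure D3:**
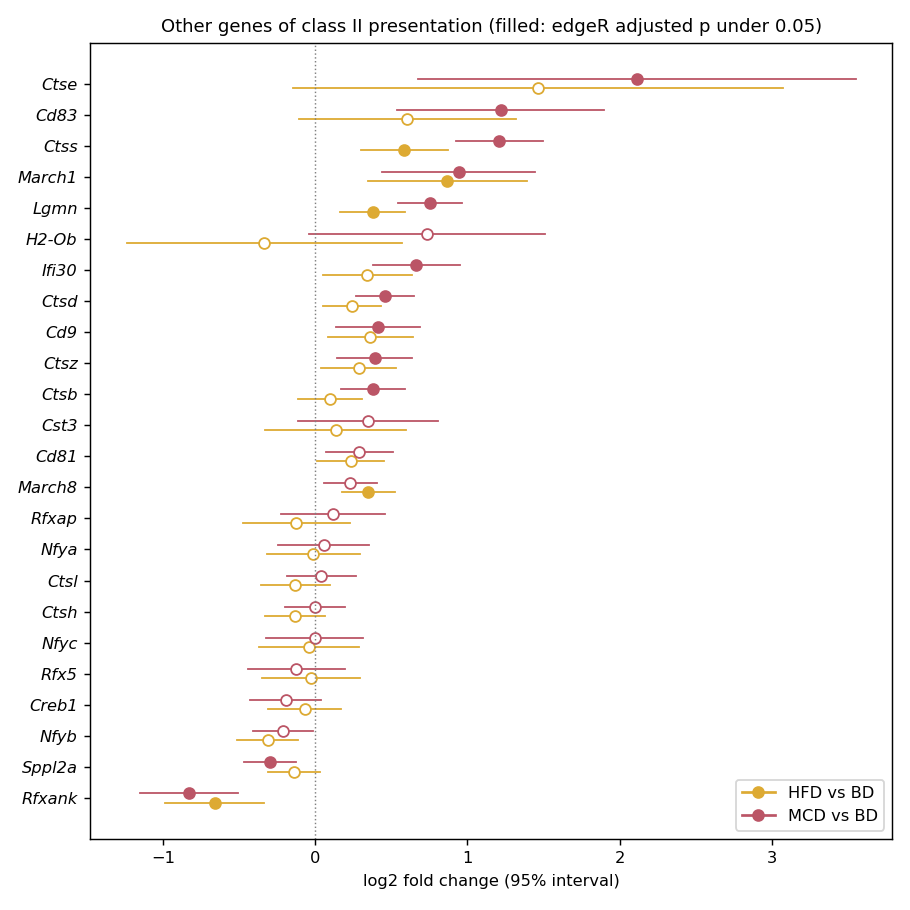
Log2 fold change of the tested class II pathway partners against the base diet, in HFD and in MCD, with 95% intervals. Ctss and Lgmn lie above 0 in both diets and Rfxank below 0 in both, while the intervals of Rfx5, Rfxap, Nfya and Nfyc cross 0 in both.

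Interferon gamma is the classical inducer of Ciita. Of its response list of 22 genes, 20 were tested (Ifng and Socs1 were too low), and 9 were higher in MCD than in BD and none lower (median log2 fold change 0.47). Among them the chemokine genes Cxcl10 and Cxcl9 rose by 1.76 and 0.93, the guanylate-binding genes Gbp2 and Gbp3 by 1.20 and 1.06, Icam1 by 1.14, Irf8 by 0.91, and the receptor genes Ifngr1 and Ifngr2 by 0.60 and 0.66. Over the alternative fits the count higher in MCD than in BD ran from 7 to 12. Cxcl9 was not called in several, among them the fit with the covariate and those without any 1 of BD replicates 1 to 4. Irf1, Igtp, Iigp1, Irgm1 and Irgm2 had -0.03 to 0.18 and were not called. In HFD Ifngr2 was higher (0.64). In MCD against HFD 2 were higher, Cxcl10 and Icam1, beside 7 without HFD replicate 2 and 0 or 1 without any 1 of BD replicates 1, 3 and 4, the other 4 HFD libraries or MCD replicates 1, 2, 4 and 5.

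Class I presentation, which shows peptides from cytosolic protein to CD8+ T cells, was described by the same measures. All 17 genes of its list were tested, and 5 were higher in MCD: the heavy chain genes H2-D1 and H2-K1, whose counts are uncertain because they are close copies, the immunoproteasome subunit genes Psmb8 and Psmb9, and the peptide transporter gene Tap1, with a median log2 fold change of 0.17 over the list. In HFD 3 were higher, Psmb8, Psmb9 and Tap1, and none was called between MCD and HFD. The MCD count was 3 without BD replicate 2, and the HFD count was 1 without HFD replicate 1. The difference between the class I and class II lists was not tested. Of 13 costimulation and T cell contact genes 5 were tested. In MCD Cd86 (1.13) and Icosl (1.22) rose, while Cd4 fell by 1.39 and Lag3, another class II receptor gene, fell by 1.13. Icosl had 50 counts over all BD libraries together and 185 over the MCD libraries, and passed the low-count filter through libraries where it was high. With the non-unique alignment covariate neither Cd4 nor Lag3 was called in MCD. In HFD Lag3 fell by 1.44 and was called in each of the 24 alternatives, while Cd4 had -0.08. Cd86 (0.80) was called in HFD, but not without any 1 of BD replicates 1 to 4, HFD replicates 1 to 4 or MCD replicates 1, 4 and 5.

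Among markers of the cells that carry class II, those of pan-leukocytes and macrophages were mostly higher in MCD than in BD. Dendritic cell, Kupffer cell and B cell markers were higher only in part. Of 8 pan-leukocyte markers 8 were called higher, with summed levels of 53.99 to 76.0 CPM in BD, 75.8 to 148 in HFD and 134 to 185 in MCD. Of 13 macrophage markers 12 were higher, with sums of 252 to 373, 347 to 508 and 493 to 677 CPM. Among the 12, Gpnmb, Trem2 and Cx3cr1 had 13, 26 and 51 counts over all BD libraries together and 1182, 267 and 500 over the MCD libraries. These genes passed the low-count filter through libraries where they were high. Of 12 dendritic cell markers 6 were tested and 3 rose, Itgax (2.89), Flt3 (1.66) and Clec9a (0.85), with sums of 12.8 to 15.7, 13.2 to 26.6 and 25.3 to 34.7 CPM. The other tested markers, Zbtb46, Xcr1 and Fscn1, were not called. Their mean levels were 2.67, 1.01 and 4.12 CPM in BD and 2.68, 1.13 and 5.55 CPM in MCD. Flt3 had 19 counts over all BD libraries together and 89 over the MCD libraries. It too passed the filter through libraries where it was high. In the fit of only these 2 diets 5 dendritic cell markers were tested, and Itgax and Clec9a were called. The dendritic count was 1 with the covariate. Of 6 Kupffer cell markers 4 were higher, with sums of 432 to 728, 488 to 779 and 458 to 742 CPM. Of 11 B cell markers 9 were found in the count tables, and Ighm and Ighd were not. The 9 were near the floor (sums of 4.49 to 8.64, 4.50 to 7.56 and 6.67 to 10.98 CPM), and of 3 tested Cd22 rose (0.98). No marker found for these 5 lists was at 0 in all libraries of a diet. In HFD against BD, where no class II member was called, 3 of 8 pan-leukocyte markers (Itgb2, Laptm5 and Ptprc), 3 of 13 macrophage markers (Cd68, Csf1r and Mpeg1) and 1 of 6 Kupffer cell markers (Cd5l) were higher. The pan-leukocyte count in HFD was 1 without any 1 of BD replicates 1 to 4 or HFD replicate 2, and without BD replicate 5 it was 5, as was the macrophage count. The part of these cells in the class II result was not tested.

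**Figure D4:**
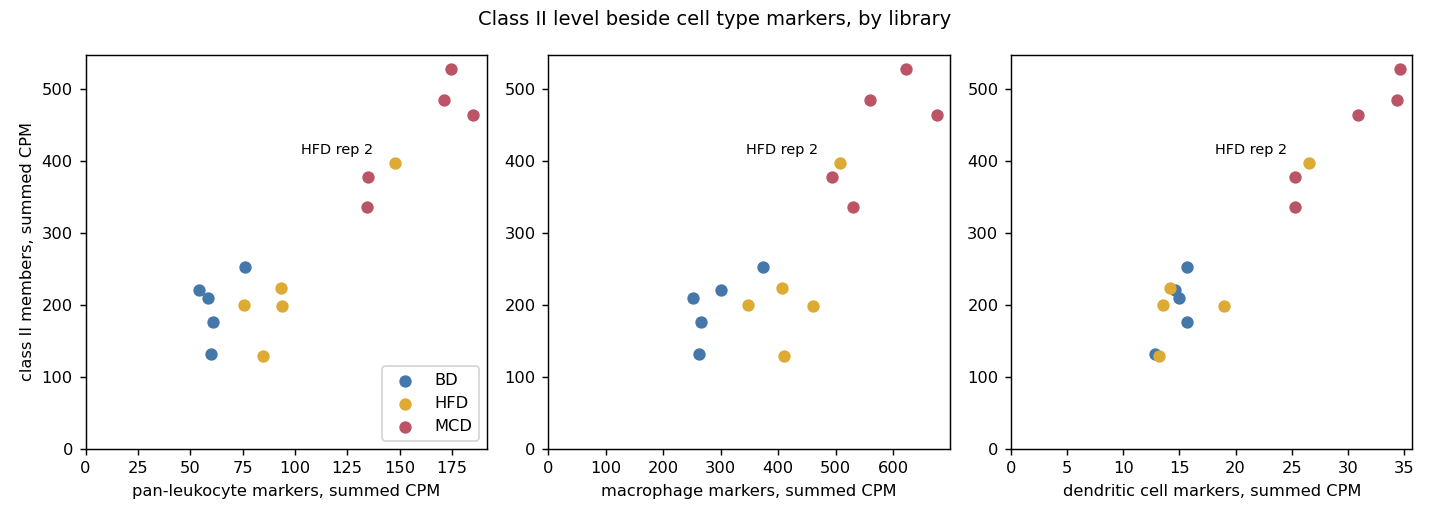
Summed CPM of the 7 class II members (vertical axis) against summed CPM of pan-leukocyte, macrophage and dendritic cell markers (horizontal axes), 1 point per library. BD and HFD libraries lie at the lower left and MCD libraries at the upper right, with HFD replicate 2 beside the MCD libraries in all 3 panels.

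HFD replicate 2 carried the highest HFD sums of pan-leukocyte (148 CPM), macrophage (508 CPM) and dendritic cell markers (26.6 CPM) as well as of class II. It also had the highest HFD sums of stellate cell (527 against 370 to 417 CPM) and cholangiocyte markers (198 against 58.3 to 83.9 CPM), and the lowest of Kupffer cell markers (488 against 573 to 779 CPM). That Kupffer sum held the lowest HFD level of the marker C6 (133 CPM) but the highest HFD sum of the other 5 Kupffer markers (355 CPM). Per dendritic cell marker count the class II sum (SD, n = 5) was 13.3 ± 2.50 in BD, 13.1 ± 2.80 under HFD and 14.5 ± 0.816 under MCD. Per pan-leukocyte marker count it was 3.21 ± 0.709, 2.27 ± 0.478 and 2.73 ± 0.227. Per macrophage marker count it was 0.680 ± 0.120, 0.530 ± 0.175 and 0.758 ± 0.101. BD and MCD overlapped in each of these 3 ratios. Of the dendritic cell sum, Itgax alone made up 0.600 to 1.52 CPM in BD and 4.79 to 12.2 CPM in MCD. The part of Itgax in the dendritic cell ratio was not tested. Per Kupffer cell marker count the ratio was 0.378 ± 0.0891 in BD and 0.733 ± 0.245 in MCD, but C6 alone made up 337 CPM of the Kupffer sum in BD and 253 CPM in MCD (log2 fold change -0.55, adjusted p = 0.220, edgeR). Over the other 5 Kupffer markers, a choice made after seeing the data, the ratio was 1.02 ± 0.230 in BD and 1.21 ± 0.334 in MCD, with overlapping ranges.

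Markers of other liver cells moved in different ways. In MCD 7 of 8 stellate cell markers were higher and 3 of 8 sinusoidal endothelial markers, while 2 of 9 hepatocyte markers were lower and none higher. Of 6 cholangiocyte markers 4 were tested, with 1 higher and 1 lower, and none of the neutrophil markers reached the filter. Of 13 T and NK cell markers 2 were tested, and Cd4 was lower while Lck (0.65) was not called. Every marker of that list but Cd4 had a higher mean CPM in MCD than in BD. The T and NK cell sum was 4.30 to 8.01 CPM in BD and 6.51 to 15.1 CPM in MCD. Depth was 3704642 to 22338718 gene counts in BD, 4367774 to 20892987 in HFD and 9146731 to 23131089 in MCD. Replicates differed by more than counting noise in all 30 within-diet pairs (chi-square per degree of freedom 7.33 to 65.0), so none was counted as the same library read again. This measure cannot tell separate animals from separate libraries of 1 animal.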

How the data were processed

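Per the labels' protocols, libraries were made from polyadenylated RNA with a stranded kit. The submitters' processing notes name Trimmomatic, TopHat2 2.0.13, HTSeq, DESeq2 and GRCm38/mm10. The annotation and counting options were not given in the sources used here. The authors deposited 1 table of unnormalized read counts per library, with 23420 genes and 5 closing rows. Those rows were left out of totals and tests. Reads without a feature were 12.7 to 17.0% and ambiguous reads 0.567 to 0.841% of each table's total without its row of non-unique alignments.

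Levels are CPM of the gene total. RPKM used the principal transcript length in GENCODE vM21. Tests used edgeR 4.0.16 in R 4.3.3 (TMM, filterByExpr with a minimum count of 10 and total of 15, robust quasi-likelihood F test, 15 libraries, Benjamini-Hochberg over 12193 genes). Calls were made at 0.05 on the adjusted p. Log2 fold changes are the fitted values, and their SE was taken from the F statistic. The script was tested on simulated counts. Alternatives were DESeq2 1.42.0, limma-voom 3.58.1, other scalings, filters and sample sets, and a covariate. Genes named as most alike were the 5 with the highest r to the members' mean (log2 CPM, prior count 2). Named list genes were the called ones, up to 5 per list and comparison by smallest p, and defining genes of a role, and the others in a list were named after their values were seen. The values of a gene in the interferon list are not reported here. The members and lists were chosen with earlier results of these data known. Floors of 3 counts cover counting error only, while the intervals of fold changes come from the fit and include the spread among libraries. Replicates are numbered in accession order.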

Additional observations from a re-analysis of the deposited data

How the results depend on the processing

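No paired analysis was possible because the labels give no replicate numbers shared between diets. The 7 members were refitted in 3 comparisons under 24 alternatives, 15 of which left out 1 library each, and of 504 log2 fold changes 442 kept their direction and side of the threshold, 18 lost the call, 19 gained it and 25 changed sign. The 6 members called in MCD against BD stayed positive in each alternative, and their count was 2 with the covariate for non-unique alignments and 4 to 6 with 1 library left out. In HFD against BD the count was 0 throughout. In MCD against HFD the members' count was 5 with DESeq2, 3 with limma-voom, 2 without TMM factors, 0 with only the 2 diets, 0 with the covariate, 6 without HFD replicate 2 and MCD replicate 3, and 0 to 6 with 1 library left out. The count of all genes there, 384, became 701 with DESeq2, 224 with only the 2 diets, 82 with the covariate, 1365 without both libraries and 74 to 1248 with 1 left out. The cause was not tested, beyond the smaller number of samples in some fits.

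All sign changes were in HFD against BD, where no member was called. With limma-voom H2-Ab1 was -0.00975, H2-Eb1 -0.10, H2-DMa -0.0408 and Ciita -0.11, and with the covariate they were -0.0230, -0.11, -0.0344 and -0.0651. Without HFD replicate 2 and MCD replicate 3, H2-Aa was -0.11, H2-Ab1 -0.20, H2-Eb1 -0.36, Cd74 -0.0883, H2-DMa -0.18 and Ciita -0.21. With 1 library left out, the range was -0.10 to 0.42 for H2-Aa, -0.19 to 0.28 for H2-Ab1, -0.35 to 0.21 for H2-Eb1, -0.08 to 0.30 for Cd74, -0.17 to 0.25 for H2-DMa and -0.20 to 0.54 for Ciita. Without TMM factors the median of all genes in MCD against BD moved to 0.12, and the share of calls that were higher was 66.4% (52.7% with TMM) in HFD against BD, 81.8% (59.7%) in MCD against BD and 86.0% (70.6%) in MCD against HFD. Counts in a library were as low as 11 for Ciita and 13 for the DM genes, and in MCD against BD the SE was 0.42 for Ciita and 0.20 for H2-DMa.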
